A study of Mus musculus with 6 samples.

Results

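Fatty acid oxidation and ketone body formation were followed through 37 genes that encode the regulators, transporters and enzymes of these pathways, chosen by name and matched to array probes by transcript accession. All 37 had a probe that was well above background on all 6 arrays, so 37 of the 21059 genes and transcripts tested are described here. The study compared 3 liver RNA samples of control mice, labelled as wild type, with 3 of mice labelled as small Maf knockouts specific to liver (sMaf CKO). All were 5 weeks old, on a mixed 129Sv/J, C57BL/6J and ICR background, with free access to water and chow. MafF, MafG and MafK, the small Maf proteins, belong to the bZIP transcription factors and pair with CNC and Bach proteins on DNA, and the question is which liver transcripts differ when they are lacking. The labels name neither the small Maf genes deleted, nor the promoter that drives the deletion, nor the sex of the mice. The samples are described as independent, without saying that each is a separate mouse, so p-values measure the spread between these samples.

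Hepatocytes take up fatty acids, couple them to coenzyme A (CoA) and pass them through the carnitine shuttle into mitochondria, where beta-oxidation shortens them to acetyl-CoA. Peroxisomes shorten very long and branched chains first. In fasting, acetyl-CoA from this route feeds ketone bodies, and the nuclear receptor PPARalpha, encoded by Ppara, drives many of the genes of the route together with coactivators encoded by Ppargc1a and Ppargc1b.

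Levels are log2 of the spot's processed signal minus the 75th percentile of its array, so a level of 0 is that percentile, and a difference is the sMaf CKO mean minus the control mean. A level is compared only with the same probe on other arrays. The 75th percentile of the signal was between 483.4 and 960.5 and the share of probes well above background between 58.0% and 73.6%, and 6 arrays limit the precision of every value. Slide 1 held replicates 1 and 2 of each genotype and slide 2 held replicate 3 of each, so a value within slide 2 compares 1 array with 1. Of the small Maf genes, Mafg read 1.88, 1.87 and 2.23 in control replicates 1, 2 and 3, against -2.97, -4.36 and -0.76 in the sMaf CKO replicates in the same order. These sMaf CKO arrays kept 3.20%, 1.22% and 14.8% of its control mean, but whether its probe lies inside a deleted part is not known. Mafg missed the threshold in limma's test (difference -4.69, adjusted p = 0.0533, or 0.0207 with slide as a block), and Maff (0.15, adjusted p = 0.911) and Mafk (0.21, adjusted p = 0.759) were not lower on average. Of 15 hepatocyte markers, 12 were tested and all 12 were well above background on all arrays, while 0 of 4 adipocyte markers passed the filter on dim probes.

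By the brightest probe of each gene, Ppara, Ppargc1a and Ppargc1b read below every control array on every sMaf CKO array. Pdk4, Acot1, Acot2 and Crat read above every control array there, but none of the 37 genes passed the test. A second probe of Ppargc1a overlapped between the genotypes. In limma's test over all genes, 0 of the 37 had a Benjamini-Hochberg adjusted p under 0.05, where 0.541% of all genes tested did (0.385% higher and 0.157% lower). With slide as a block the count was again 0, against 1.61% of all genes (0.992% higher and 0.622% lower). By unadjusted p under 0.05 there were 13 of the 37, 9 (24.3%) with a negative and 4 (10.8%) with a positive difference, beside 16.8% of all genes, 8.11% negative and 8.71% positive. In 13 of the 37 (35.1%) every sMaf CKO array lay below every control array, and in 4 (10.8%) every one lay above, beside 11.5% and 11.3% of all genes. The median difference was -0.29 over the 37 genes, 30 of them negative, and -0.05 over all genes, of which 54.7% were negative. In bulk liver, fewer cells of a type and less RNA per cell cannot be told apart.

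**Figure D1:**
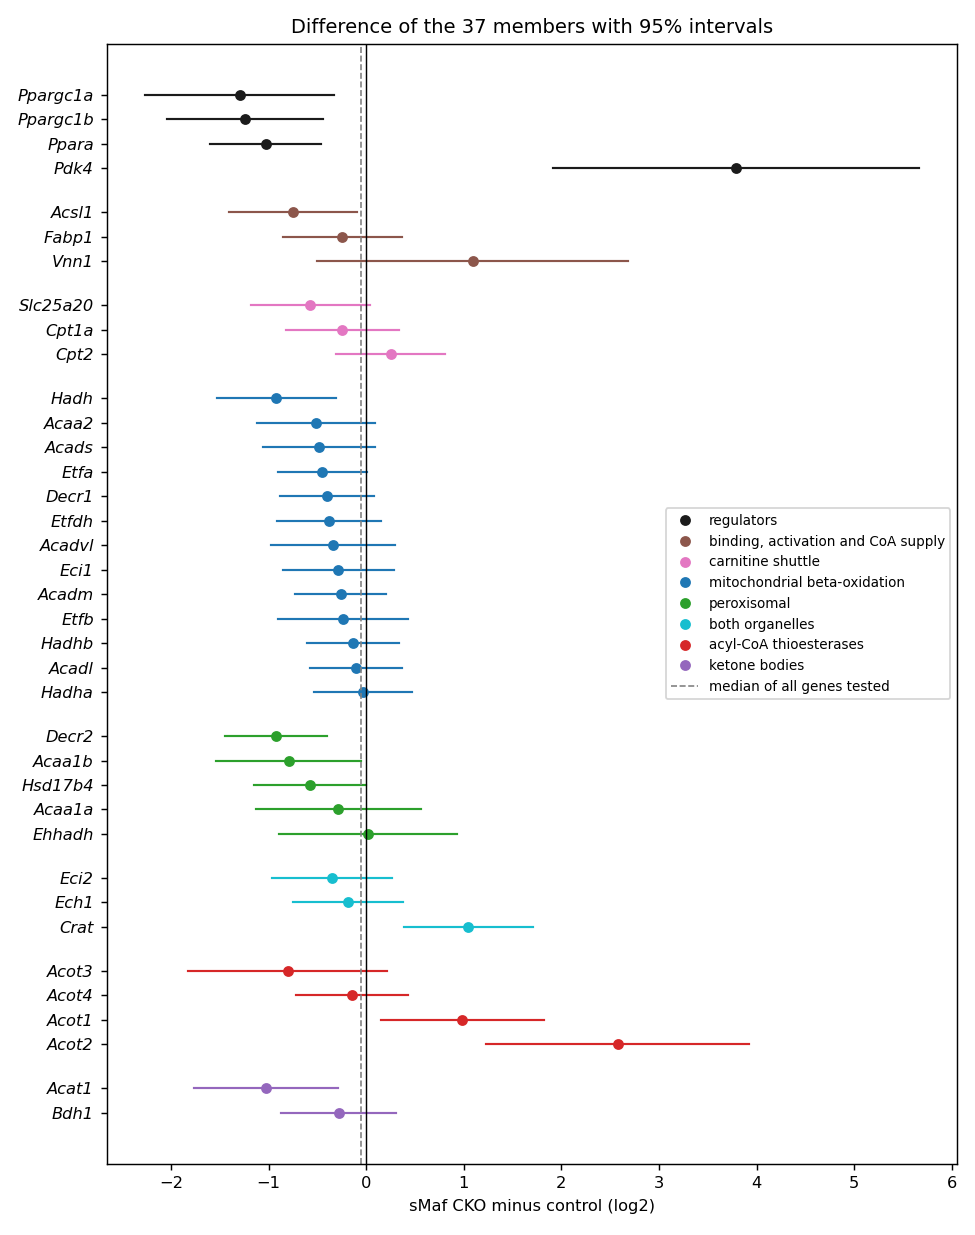
Difference of each of the 37 genes, sMaf CKO minus control on the log2 scale, with points for the estimate and lines for limma's 95% interval, grouped by role; the dashed line is the median of all genes tested (-0.05). Pdk4 (3.79) and Acot2 (2.58) lie far to the right, and all 13 mitochondrial beta-oxidation genes lie left of 0, most with intervals that include it.

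Ppara, its coactivators and Pdk4 form the group of regulators. Ppara read 4.15, 4.05 and 4.53 in control replicates 1, 2 and 3, and 2.94, 3.21 and 3.49 in the sMaf CKO replicates. Every sMaf CKO array was thus below every control array. The control mean of 4.24 ± 0.25 (SD, n = 3) stood against 3.21 ± 0.28 (SD, n = 3) for sMaf CKO arrays, a difference of -1.03 (SE 0.25, 95% interval -1.60 to -0.46; limma adjusted p = 0.116, or 0.0598 with slide as a block). It was -1.03 within each slide.

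Ppargc1a, whose protein joins PPARalpha and other receptors to drive mitochondrial and fasting genes, read 2.45, 2.73 and 2.53 in control and 1.33, 2.11 and 0.37 in sMaf CKO liver. The control arrays lay close together and the sMaf CKO arrays spread widely, all of them below control. The difference was -1.30 (SE 0.42, adjusted p = 0.195 in limma's test), with -0.87 on slide 1, -2.16 on slide 2. A second, dimmer probe of Ppargc1a gave -0.39, and on it the genotypes overlapped. It read -0.02, 0.20 and 0.14 in control and -0.90, -0.03 and 0.09 in sMaf CKO liver.

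Ppargc1b, a related coactivator, read 3.08, 2.35 and 3.43 in control and 1.23, 1.94 and 1.96 in sMaf CKO liver. The genotypes again did not overlap. Its difference was -1.24 (SE 0.34, limma adjusted p = 0.156, or 0.0895 with slide as a block), and its second probe gave -1.31. Within slides 1 and 2 it was -1.13 and -1.47. The negative sign of all 3 genes held under every scaling tried, with quantile values of -0.86 for Ppara, -1.21 for Ppargc1a and -1.17 for Ppargc1b.

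Pdk4 encodes a kinase that switches off pyruvate dehydrogenase, sparing glucose while fat is burned, and its transcript is induced by fasting and by PPARalpha ligands. It read -0.57, -1.59 and -1.51 in control and 4.44, 0.89 and 2.38 in sMaf CKO liver. All 3 sMaf CKO arrays were above all control arrays, and they differed among themselves by far more than the control arrays did, with an SD of 1.78 against 0.56. The difference was 3.79 (SE 0.80, 95% interval 1.92 to 5.66), or 13.8-fold, the 18th highest of the 21059 genes and transcripts tested. It missed the threshold in limma's test (adjusted p = 0.0907, or 0.0732 with slide as a block) and was 3.74 on slide 1, 3.88 on slide 2. Without sMaf CKO replicate 1, its highest value, it was 2.85.

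**Figure D2:**
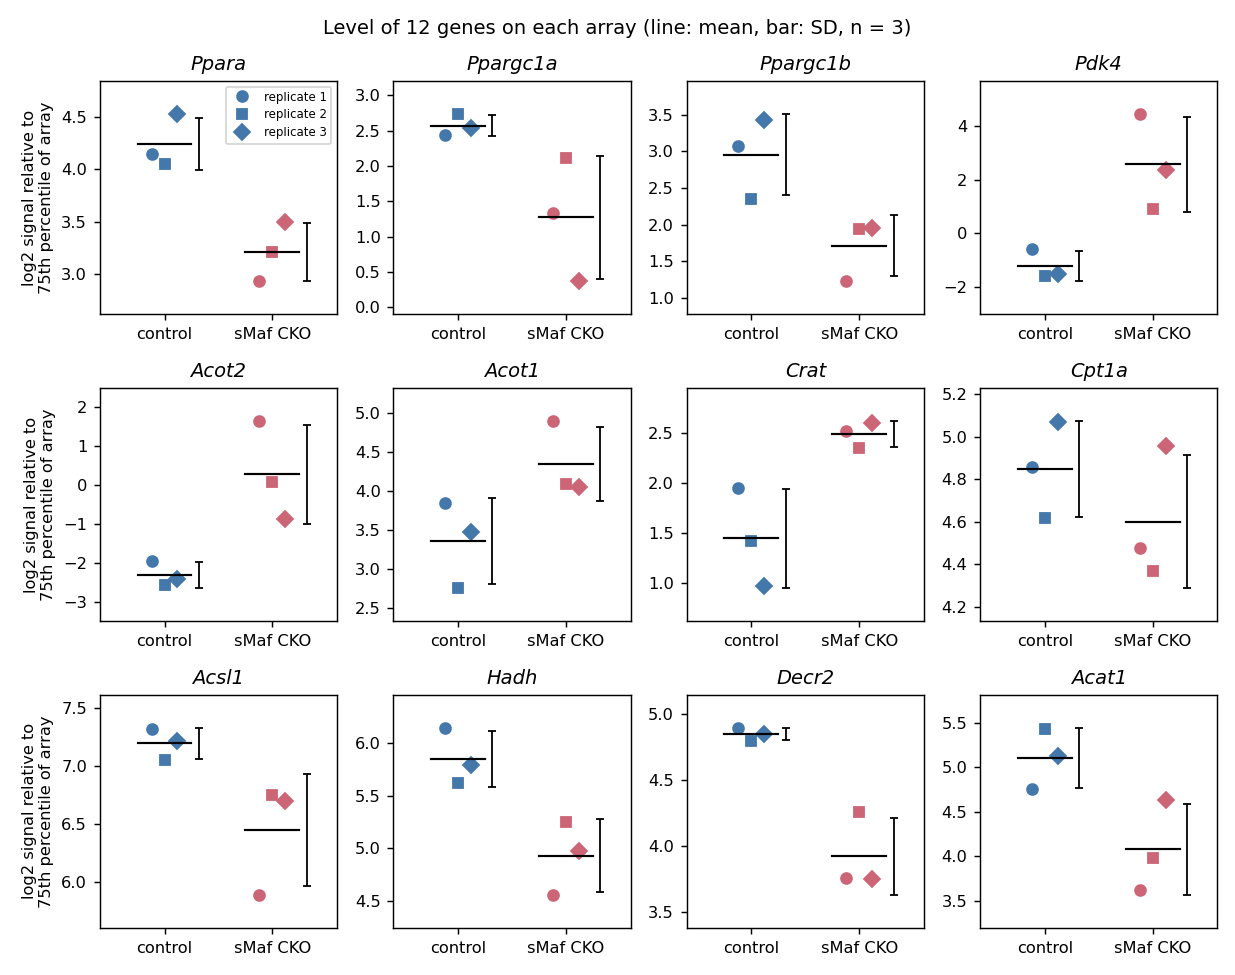
Level of 12 genes on each array, as log2 signal relative to the array's 75th percentile, with marker shape for the replicate number, a line for the mean and a bar for the SD (n = 3 per genotype). The arrays of the genotypes do not overlap for 11 of these 12 selected genes, the exception being Cpt1a. Among all 37 genes they do not overlap for 17. Among all genes tested they do not overlap for 11.5% with sMaf CKO lower and 11.3% with sMaf CKO higher. Of the 12 genes, Pdk4, Acot2 and Ppargc1a have the widest spread among sMaf CKO arrays.

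The acyl-CoA thioesterases, which release free fatty acids and CoA from acyl-CoA and are classical PPARalpha targets, had differences of both signs. Acot2, a mitochondrial enzyme, read -1.94, -2.57 and -2.41 in control and 1.63, 0.07 and -0.89 in sMaf CKO liver. All sMaf CKO arrays were above control, array 1 by the most. The difference was 2.58 (SE 0.58, 95% interval 1.23 to 3.93), or 5.97-fold, with 3.11 on slide 1, 1.52 on slide 2. In limma's test its adjusted p was 0.104. It passed within slide 1 (0.0436), without sMaf CKO replicate 3 (3.16, adjusted p = 0.0311) and with replicate number as a block (0.0434). The first of these settings uses only arrays of the second. Acot2 did not pass with any other array left out (adjusted p = 0.160 to 0.241) or under quantile normalization (0.133).

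Acot1, the cytosolic paralog, read 3.85, 2.76 and 3.46 in control and 4.89, 4.09 and 4.04 in sMaf CKO liver. The groups did not overlap, though control array 1 and sMaf CKO array 3 lay close together. The difference was 0.99 (SE 0.36, limma adjusted p = 0.239; 1.19 on slide 1, 0.58 on slide 2). Acot3 and Acot4, the peroxisomal paralogs, had differences of -0.81 (SE 0.44, adjusted p = 0.399) and -0.15 (SE 0.25, adjusted p = 0.795), and their arrays overlapped. The Acot genes are close paralogs, as are Acaa1a and Acaa1b, and whether a probe reads more than 1 of them was not tested.

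Promoters are shown for the genes with the largest differences that had an entry in the RefSeq promoter table (GRCm38.p6), and for Fabp1, a fatty acid binding protein gene and the only one of the 30 genes with an entry that has a direct repeat of the kind PPARalpha binds. Each runs 5′ to 3′ from 250 bases before the annotated start to 50 after it. Capitals mark matches, on either strand, to the direct repeat (a pair of AGGNCA with 1 base between), AGGTCA (a nuclear receptor core), TGCTGA (an arm of the Maf recognition element) or TGACNNNGC (the core of the antioxidant response element). They lie at chr15:85735526-85735825 (plus strand), chr5:51567676-51567975 (minus strand), chr6:5496229-5496528 (minus strand), chr12:83987611-83987910 (plus strand) and chr6:71199629-71199928 (plus strand), respectively.
Ppara: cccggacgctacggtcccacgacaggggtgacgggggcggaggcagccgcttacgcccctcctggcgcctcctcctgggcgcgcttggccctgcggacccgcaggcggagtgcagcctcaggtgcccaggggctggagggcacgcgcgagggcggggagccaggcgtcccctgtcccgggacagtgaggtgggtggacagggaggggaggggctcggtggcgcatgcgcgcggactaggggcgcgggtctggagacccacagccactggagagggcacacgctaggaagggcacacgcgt
Ppargc1a: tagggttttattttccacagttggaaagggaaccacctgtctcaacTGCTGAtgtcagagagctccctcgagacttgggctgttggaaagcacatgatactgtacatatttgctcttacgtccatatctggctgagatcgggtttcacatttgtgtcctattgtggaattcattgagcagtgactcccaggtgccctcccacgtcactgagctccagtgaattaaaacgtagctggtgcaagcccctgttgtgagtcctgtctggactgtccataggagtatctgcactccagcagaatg
Pdk4: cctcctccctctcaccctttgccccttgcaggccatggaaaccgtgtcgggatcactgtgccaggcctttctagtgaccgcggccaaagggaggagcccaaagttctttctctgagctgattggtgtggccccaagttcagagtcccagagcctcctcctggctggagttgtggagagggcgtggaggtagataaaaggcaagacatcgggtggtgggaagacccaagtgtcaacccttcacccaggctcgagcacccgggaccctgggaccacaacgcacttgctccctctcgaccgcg
Acot2: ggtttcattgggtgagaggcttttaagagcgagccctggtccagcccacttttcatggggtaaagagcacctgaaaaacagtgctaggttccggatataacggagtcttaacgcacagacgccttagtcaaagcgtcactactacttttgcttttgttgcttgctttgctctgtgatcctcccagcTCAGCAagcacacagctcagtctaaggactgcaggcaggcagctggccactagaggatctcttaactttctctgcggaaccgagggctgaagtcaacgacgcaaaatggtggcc
Fabp1: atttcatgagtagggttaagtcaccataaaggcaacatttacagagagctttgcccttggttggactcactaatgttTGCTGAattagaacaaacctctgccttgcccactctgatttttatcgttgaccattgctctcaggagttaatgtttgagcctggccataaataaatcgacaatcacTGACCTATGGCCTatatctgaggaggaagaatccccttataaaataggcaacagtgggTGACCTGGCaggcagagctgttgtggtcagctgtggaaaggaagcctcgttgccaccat

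The windows of Ppara and Pdk4 held no match to any of these motifs, while those of Ppargc1a and Acot2 each held 1 TGCTGA, which starts 204 and 64 bases before the annotated start. In Fabp1, TGACCTATGGCCT, the direct repeat on the opposite strand, begins 67 bases before the start, and TGACCTGGC, 9 bases before it, matches both AGGTCA on the opposite strand and TGACNNNGC. Of the 37 genes, 30 had an entry, with 33 windows in all. TGCTGA was in 15.2% of them against 19.5% of all 32851 windows in the table, TGACNNNGC in 12.1% against 12.4%, AGGTCA in 21.2% against 16.3% and the direct repeat in 1 of 33 against 0.381%. The motifs overlap in part, and matches are letters in a window only. Fabp1 read 8.21, 8.14 and 8.31 in control and 7.58, 7.92 and 8.42 in sMaf CKO liver. Its groups overlapped, with a difference of -0.25 (95% interval -0.85 to 0.36, limma adjusted p = 0.669).

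Genes for fatty acid binding, activation and CoA supply had differences of both signs. Acsl1, the main long-chain acyl-CoA synthetase of liver, read 7.32, 7.05 and 7.21 in control and 5.89, 6.75 and 6.70 in sMaf CKO liver. All sMaf CKO arrays lay below control, array 1 furthest. The difference was -0.75 (SE 0.28, limma adjusted p = 0.250; -0.87 on slide 1, -0.51 on slide 2), and its other probes gave -0.75 and -0.67. Vnn1, a pantetheinase that frees a precursor of CoA, read -0.58, 1.83 and -0.59 in control and 1.56, 1.88 and 0.49 in sMaf CKO liver. Control array 2 lay among the sMaf CKO arrays, so the difference of 1.09 (SE 0.68, adjusted p = 0.462) was within the spread between control arrays.

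In the carnitine shuttle, the outer-membrane transferase Cpt1a, which sets the rate of mitochondrial fat entry, read 4.86, 4.62 and 5.07 in control and 4.48, 4.37 and 4.95 in sMaf CKO liver. The groups overlapped. Its difference of -0.25 (95% interval -0.82 to 0.33, limma adjusted p = 0.650) turned to 0.0027 under quantile normalization and 0.06 under spike-in scaling, and a second probe gave -0.67. Slc25a20, the carrier that exchanges acylcarnitine for carnitine across the inner membrane, read 2.39, 2.33 and 1.77 in control and 1.61, 1.85 and 1.31 in sMaf CKO liver. Only control array 3 lay within the sMaf CKO range, and the difference was -0.57 (SE 0.26, adjusted p = 0.322). Cpt2, the inner-membrane transferase, was the one shuttle gene with a positive difference, 0.25 (95% interval -0.31 to 0.81, adjusted p = 0.633).

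Mitochondrial beta-oxidation enzymes had negative differences throughout, most of them small. All 13 differences were negative, from -0.92 for Hadh to -0.03 for Hadha, with a median of -0.34. Limma's test called 0 of 13. By unadjusted p under 0.05 there was 1, where 8.11% of all genes were negative at that p. Slide 1 alone gave a median of -0.46 and slide 2 alone -0.10. Hadh, the short-chain hydroxyacyl-CoA dehydrogenase of the matrix, read 6.14, 5.62 and 5.79 in control and 4.56, 5.25 and 4.98 in sMaf CKO liver. Its groups did not overlap, and the difference was -0.92 (SE 0.26, adjusted p = 0.161; -0.98 on slide 1, -0.81 on slide 2).

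The acyl-CoA dehydrogenases, which open each round of oxidation, had differences of -0.34 for Acadvl (very long chains), -0.11 for Acadl (long), -0.26 for Acadm (medium) and -0.48 for Acads (short). Acadm and Acads had no overlap between genotypes, although all 4 intervals included 0, the narrowest running from -0.73 to 0.20 for Acadm. The trifunctional protein genes Hadha and Hadhb were close to 0, at -0.03 (95% interval -0.54 to 0.47) and -0.14 (95% interval -0.61 to 0.33). The thiolase gene Acaa2 (-0.51), the isomerase gene Eci1 (-0.29) and the dienoyl-CoA reductase gene Decr1 (-0.40), which handle the last step and unsaturated chains, had intervals that included 0. The electron carriers that take electrons from the dehydrogenases to the respiratory chain had differences of -0.45 for Etfa, -0.24 for Etfb and -0.38 for Etfdh. Of these 3, only Etfa had no overlap, at 5.28 ± 0.05 (SD, n = 3) for control against 4.83 ± 0.12 (SD, n = 3) for sMaf CKO arrays, and an adjusted p of 0.304 in limma's test.

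The sMaf CKO arrays contributed unequally. Of the 13 mitochondrial genes, 12 had their lowest level on sMaf CKO array 1, as had 24 of the 37 genes and 29.0% of all genes. The median of the 13 genes relative to their control means was -0.59, -0.32 and -0.15 on sMaf CKO arrays 1, 2 and 3 and 0.15, -0.13 and -0.01 on control arrays 1, 2 and 3. The median of the 37 genes, -0.29, was -0.21 without sMaf CKO replicate 1, -0.48 without sMaf CKO replicate 3 and -0.45 with the mean of each gene's probes, with 29, 30 and 30 negative. Hepatocyte markers stood at -0.83, -0.48 and 0.03 on the sMaf CKO arrays, with 10 of 12 differences negative and a median of -0.43. Over the 2106 tested probes with the highest mean signal, a set chosen after the values were seen, the median difference was -0.25 and 76.6% were negative. Of the 37 genes, 24 were in that set, 21 of these with a negative difference. Under quantile normalization, which equalises the distributions of the arrays, the median was 0.01 for the 13 genes and 0.03 for the bright probes, so the negative sign of the mitochondrial class did not hold there. The part of hepatocyte share and of signal brightness in these differences was not tested.

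**Figure D3:**
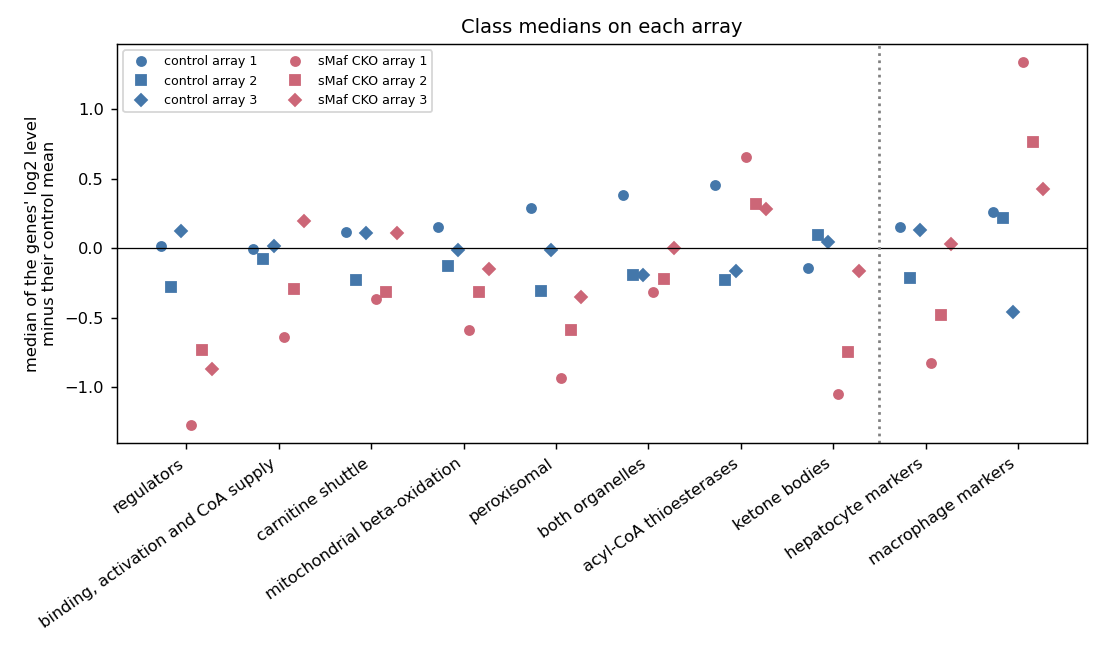
Median, over the genes of each class, of the log2 level minus the gene's control mean, for each of the 6 arrays (blue control, red sMaf CKO, shape for the replicate), with hepatocyte and macrophage markers at the right. sMaf CKO array 1 is lowest for the mitochondrial (-0.59), peroxisomal (-0.94) and ketone (-1.05) classes and for hepatocyte markers (-0.83), and highest for macrophage markers (1.34).

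Among peroxisomal enzymes 4 of 5 differences were negative, and their median was -0.58 (-0.72 on slide 1, -0.25 on slide 2, -0.19 under quantile normalization). Limma's test called 0 of 5. By unadjusted p under 0.05 there were 3, all negative, where 8.11% of all genes were negative at that p. Decr2, the peroxisomal dienoyl-CoA reductase, read 4.89, 4.80 and 4.85 in control and 3.76, 4.26 and 3.75 in sMaf CKO liver. The control arrays were nearly equal and all sMaf CKO arrays lay below them. The difference was -0.92 (SE 0.23, adjusted p = 0.123, or 0.0922 with slide as a block; -0.84 on slide 1, -1.10 on slide 2). Hsd17b4, which encodes the D-bifunctional protein, read 7.09, 6.53 and 6.79 in control and 5.97, 6.21 and 6.49 in sMaf CKO liver. Control array 2 and sMaf CKO array 3 nearly touched, and the difference was -0.58 (SE 0.25, limma adjusted p = 0.292; -0.72 on slide 1, -0.31 on slide 2).

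The thiolase gene Acaa1b read 6.87, 6.12 and 6.29 in control and 5.13, 5.70 and 6.07 in sMaf CKO liver. Its groups did not overlap by a narrow margin, with a difference of -0.79 (SE 0.32, limma adjusted p = 0.274; -1.08 on slide 1, -0.22 on slide 2). Its paralog Acaa1a differed by -0.28 (95% interval -1.13 to 0.56, adjusted p = 0.731) by its brightest probe and by -0.74 and -0.85 by the other probes, all of them negative. Under quantile normalization and spike-in scaling the brightest probe turned to 0.10 and 0.03. Ehhadh, the L-bifunctional enzyme and a sensitive PPARalpha target, read 4.70 ± 0.59 in control and 4.72 ± 0.58 in sMaf CKO liver (SD, n = 3), a difference of 0.02 (95% interval -0.90 to 0.93). That interval is wide enough to include the difference of Acaa1b.

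Among 3 genes whose proteins work in both organelles, Crat alone had a positive difference. Crat, the carnitine acetyltransferase that buffers acetyl-CoA as acetylcarnitine, read 1.95, 1.41 and 0.96 in control and 2.52, 2.35 and 2.60 in sMaf CKO liver. The sMaf CKO arrays were tight and all above control. The difference was 1.05 (SE 0.29, 95% interval 0.38 to 1.71; limma adjusted p = 0.153), with 0.75 on slide 1, 1.63 on slide 2. The isomerase genes Eci2 (-0.35, adjusted p = 0.536) and Ech1 (-0.19, adjusted p = 0.733) overlapped between genotypes, and both turned positive under quantile normalization, at 0.065 for Ech1 and 0.014 for Eci2.

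The comparison of mitochondrial, peroxisomal and ketone steps gave medians of -0.34 over 13 genes, -0.58 over 5 and -0.66 over 2, with no test between classes. With Crat, Eci2 and Ech1 counted in both organelles, the mitochondrial median was -0.31 and the peroxisomal -0.32, so the gap between them depends on how these 3 genes are counted. Shared genes can by themselves draw the medians together, and placing them in a single organelle was not tried. On each sMaf CKO array the peroxisomal median was below the mitochondrial one, at -0.94, -0.59 and -0.36 against -0.59, -0.32 and -0.15. On the control arrays, in replicate order, the peroxisomal median was 0.29, -0.31 and -0.01 and the mitochondrial one 0.15, -0.13 and -0.01. Whether the gap between the classes differs by genotype was not tested.

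Of the ketone genes, Acat1, the mitochondrial thiolase that joins acetyl-CoA units at the start of ketone body formation, read 4.76, 5.43 and 5.13 in control and 3.62, 3.98 and 4.63 in sMaf CKO liver. The groups did not overlap, sMaf CKO array 3 lying just under control array 1. The difference was -1.03 (SE 0.32, 95% interval -1.77 to -0.29; limma adjusted p = 0.185), with -1.29 on slide 1, -0.50 on slide 2. Bdh1, the dehydrogenase that reduces acetoacetate to hydroxybutyrate, read 7.05, 6.86 and 7.06 in control and 6.37, 6.61 and 7.14 in sMaf CKO liver. Its highest level was on sMaf CKO array 3. The difference was -0.28 (SE 0.25, 95% interval -0.88 to 0.31, adjusted p = 0.606; -0.47 on slide 1, 0.08 on slide 2), and another probe, for another transcript accession, gave -0.66.

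**Figure D4:**
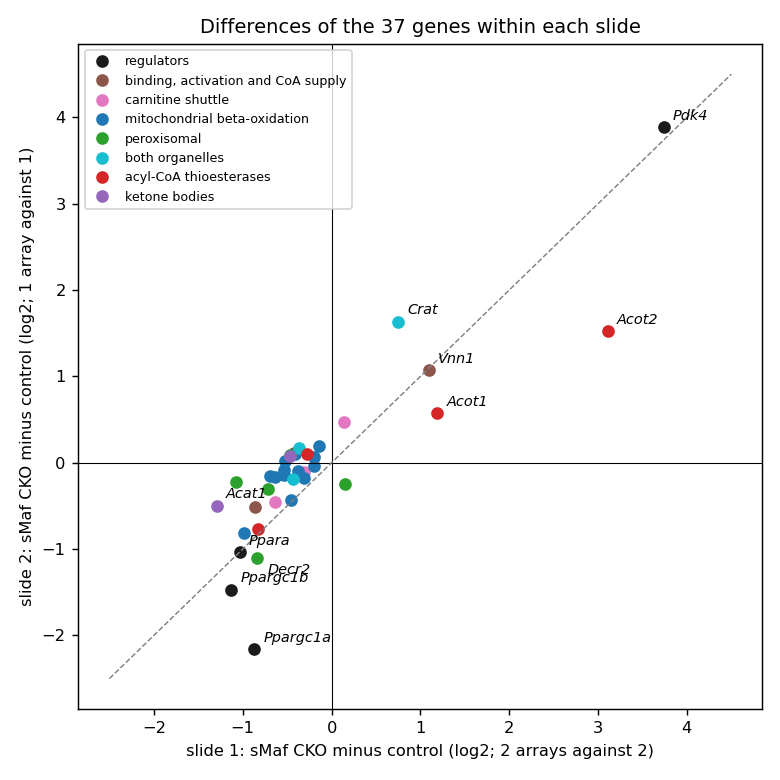
Difference of each of the 37 genes within slide 1 (2 arrays against 2, horizontal axis) and within slide 2 (1 array against 1, vertical axis), both log2, coloured by role; the dashed line marks equal values. Of the 37 genes, 27 have the same sign on both slides, and Pdk4 and Ppara lie close to the line.

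Other genes of these pathways, a list of 81 of which 78 were tested, had a median of -0.40 (-0.53 within slide 1, -0.22 within slide 2), with 58 negative and 20 positive differences. By limma's test 1 of them changed, a rise, where 0.385% of all genes rose. A further count by unadjusted p under 0.05 gave 20 negative and 6 positive of the 78, beside 8.11% negative and 8.71% positive of all genes. That gene was Fgf21, the fasting and stress hormone of liver and a PPARalpha target, which read 0.45, -0.82 and 0.11 in control and 2.86, 4.08 and 3.07 in sMaf CKO liver. The groups were far apart. It rose by 3.42 (SE 0.43, limma adjusted p = 0.0366, or 0.0234 with slide as a block), by 3.65 on slide 1, 2.96 on slide 2. The call was lost under quantile normalization (adjusted p = 0.0596), with no filter on dim probes (0.139) and without control replicate 1 (0.129), control replicate 3 (0.0884), sMaf CKO replicate 1 (0.120) or sMaf CKO replicate 2 (0.0840), where the difference stayed between 3.05 and 3.69.

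Other pathway genes with small p included Acadsb, a branched-chain acyl-CoA dehydrogenase gene (-0.88, SE 0.21, limma adjusted p = 0.115), Nudt7, a peroxisomal CoA hydrolase gene (-1.53, SE 0.37, adjusted p = 0.120), Cd36, a fatty acid uptake receptor gene (1.40, SE 0.35, adjusted p = 0.125), and Slc16a6, a ketone body exporter gene (1.01, SE 0.26, adjusted p = 0.136). None of these 4 had overlapping arrays. Oxct1, the ketone body activating enzyme that hepatocytes normally lack, and the monocarboxylate transporter gene Slc16a1 were picked after their values were seen. Oxct1 read 1.37, 1.79 and 1.79 in control and 2.60, 2.30 and 2.56 in sMaf CKO liver, and the groups did not overlap. Its difference was 0.84 (SE 0.23, adjusted p = 0.151 in limma's test), and that of Slc16a1 was 0.61 (SE 0.23, adjusted p = 0.248).

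Markers of other cell types also had differences between the genotypes, few of which passed limma's test. All 11 tested macrophage markers had positive differences (median 0.82), 2 of which, Trem2 and Gpnmb, passed limma's test. The summed level of the 11 was 79.3 to 131 on control and 184 to 414 on sMaf CKO arrays, as multiples of the 75th percentile. The brightest probes weigh most in this sum, Marco (7.69) and Cd5l (7.11) on sMaf CKO array 1, so it is not a measure of macrophage number. Trem2 was well above background on 5 and Gpnmb on 3 of 6 arrays, and such genes can enter the test through the arrays where they are bright. Their calls are a description of this list, not support for it. With slide as a block 3 macrophage markers were called, Marco being the third. Marco was well above background on all 6 arrays and differed by 3.73 (limma adjusted p = 0.0858, or 0.0107 with slide as a block). All 6 cholangiocyte markers (median 0.76) and all 7 stellate cell markers (median 0.47) were positive too, with 0 calls by limma in either list. By unadjusted p under 0.05, 6 of 11 macrophage, 2 of 6 cholangiocyte and 3 of 7 stellate cell markers were higher, where 8.71% of all genes were. The macrophage count includes Trem2 and Gpnmb. Endothelial (median -0.16, 6 tested), erythroid (0.42, 4 tested) and muscle markers (-0.02, 2 tested) had 0 calls by limma and 0 by unadjusted p under 0.05. Oxct1, Cd36 and Pdk4 are expressed by cell types other than hepatocytes, and the part of such cells in their differences was not tested.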

How the data were processed

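Liver RNA samples, 3 control and 3 sMaf CKO, were hybridised to one-colour (Cy3) Agilent arrays. Per the file headers, the authors extracted each spot's intensity with Feature Extraction 10.7.3.1 (protocol GE1_107_Sep09, array design on mm9), with background subtraction and spatial detrending within the array. The deposited value table holds log2 values with scale and centring unstated. Its columns match log2 intensity minus the 75th percentile, centred for each probe on its median over the 6 arrays (r = 1.00 for every column, 27806 probes), and their medians were 0.05, -0.02, 0.08, -0.10, -0.11 and 0.09.

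Here, spots with outlier flags and control spots were left out, the spots of each probe were averaged, and a probe had to be well above background on 3 or more arrays (27859 of 41174, 0 of them saturated). Probes were named by transcript accession through RefSeq's GRCm38.p6 gene table, which gave 1 symbol to 26690. For each gene the probe with the highest mean was used. The test of genotype used limma 3.58.1 under R 4.3.3 (lmFit, eBayes, genotype alone) with Benjamini-Hochberg adjustment over 21059 genes and transcripts, and the test was checked on simulated data. The genes and lists were chosen with earlier results of these data known. Values on every array are given for the regulators, Cpt1a, the ketone genes, genes at an unadjusted p under 0.05 and the largest difference of each class, with Fabp1 added for its promoter. Outside the 37 genes, the rule named those that changed, up to 6 with the smallest p and a few fixed by name, some of which are not reported here, and Oxct1 and Slc16a1 were added. Alternatives were other background, scaling and filter choices, the authors' table, the mean of probes, slide and replicate blocks, other eBayes settings, a stricter threshold and each array left out.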

Additional observations from a re-analysis of the deposited data

How the results depend on the processing

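Over all genes, the number called was 114 and moved with most settings, to 74 with normexp background correction, 22 under quantile normalization, 252 under median scaling, 13 under spike-in scaling, 266 with a filter on all 6 arrays, 1 with none, 340 with slide as a block, 308 with trend and robust settings, 196 within slide 1, 3 at an adjusted p under 0.01 and 3 to 294 with an array left out. The share of rises among calls was 71.1%, and ranged, over the other settings with more than 1 call at the 0.05 threshold, from 56.1% within slide 1 to 81.8% under quantile normalization (18 of 22), and from 48.6% without sMaf CKO replicate 3 (143 of 294) to 86.4% without control replicate 3 (19 of 22). Of the 37 genes, 0 were called, but 1 was under median scaling (Pdk4, adjusted p = 0.0492), 1 within slide 1 (Acot2) and 0 to 1 with an array left out. Same-numbered arrays correlated in their deviations at r = 0.06, 0.17 and 0.42, and not every array correlated best with its own number. With so few arrays, these values cannot tell whether the numbers pair the samples. With the replicate block limma called 291 genes, 2 of the 37 among them, Pdk4 (adjusted p = 0.0265) and Acot2 (0.0434). Of the other pathway genes, 1 was called, against 0 under quantile normalization, with no filter and at an adjusted p under 0.01, 2 with trend and robust settings, and 0 to 2 with an array left out.

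Spike-in scaling moved the median of all genes by 0.31 to 0.26. It shifts every gene's difference by the same amount, so the gap of -0.23 between the 37 genes and all genes could not change. Quantile normalization can change this gap, which was 0.01 there. Class medians under spike-in scaling were 0.026 for all 37 genes, -0.83 for regulators, 0.065 for activation, 0.064 for the shuttle, -0.029 for mitochondrial, -0.27 for peroxisomal, 0.12 for dual-organelle, 0.73 for thioesterase and -0.34 for ketone genes. Under quantile normalization they were 0.013 for all 37, 0.15 for activation, 0.0027 for the shuttle, 0.013 for mitochondrial, -0.19 for peroxisomal and -0.35 for ketone genes, the last against -0.66 as reported. Within slide 2 they were 0.11 for activation, 0.17 for dual-organelle, -0.21 for ketone, -0.10 for mitochondrial and -0.25 for peroxisomal genes.

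Differences that turned positive under quantile normalization were Acaa1a (0.10), Acadl (0.032), Acadm (0.13), Acadvl (0.086), Bdh1 (0.11), Cpt1a (0.0027), Ech1 (0.065), Eci1 (0.013), Eci2 (0.014), Etfb (0.17), Fabp1 (0.15), Hadha (0.063) and Hadhb (0.17). Under spike-in scaling they were Acaa1a (0.026), Acadl (0.20), Acadm (0.048), Acot4 (0.16), Bdh1 (0.027), Cpt1a (0.064), Ech1 (0.12), Eci1 (0.026), Etfb (0.068), Fabp1 (0.065), Hadha (0.28) and Hadhb (0.17). Within slide 2 they were Acaa1a (0.086), Acadl (0.065), Acadvl (0.024), Acot4 (0.10), Bdh1 (0.079), Ech1 (0.17), Etfb (0.10), Fabp1 (0.11) and Hadha (0.19). Ehhadh turned negative under median scaling (-0.0070), with normexp (-0.0039) and within slide 2 (-0.25). With an array left out, differences ran from -0.57 to 0.042 for Acaa1a, -0.26 to 0.064 for Acot4, -0.28 to 0.0049 for Ech1, -0.26 to 0.35 for Ehhadh and -0.15 to 0.044 for Hadha. The cause was not tested. Ppara, Ppargc1a, Ppargc1b, Pdk4, Acot2, Crat, Hadh, Decr2 and Acat1 kept their sign under every alternative run.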
